A study of Danio rerio with 16 samples.

Results

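The uninjured zebrafish caudal fin was measured by whole genome bisulfite sequencing in 2 forms, as intact tissue and as cells sorted after dissociation, and the 2 libraries of whole fin are compared here with the 2 libraries of sp7- cells. These are 4 of the 16 libraries of the series, and no methylation value was used to choose them. The genome was divided into tiles of 500 bp, the level of a tile was the percentage of methylated calls among all calls at its CpGs, and 1750620 of the 2631724 tiles that hold a CpG (66.5%) had at least 10 calls in each of the 4 libraries. All fish were labelled Tg(sp7:EGFP), a line in which EGFP is driven by regulatory regions of sp7, and were adults with no amputation (0 days post amputation, dpa). The sp7- cells were the EGFP-negative gate of pooled fins digested with TrypLE and Liberase DL and passed through a filter that removed aggregates. Whole fin DNA came from tissue that was not sorted. How many fish went into each whole fin library is not given in the sources used here. The sort, the dissociation, the pool of fish and the sequencing depth all differ between the groups and cannot be told apart in this comparison. The labels carry replicate numbers but do not say which fish were pooled, so the error given here is that between 2 libraries.

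In vertebrates most CpGs carry 5-methylcytosine, and the stretches that do not are mainly promoters, enhancers and other regulatory elements, whose level can differ from one cell type to another. A bulk level is therefore an average over the cells that entered the library. The fin holds a layered epidermis, dermal fibroblasts, bone-forming osteoblasts that line the fin rays, nerves with their glia, blood vessels, pigment cells and blood. Sp7 (osterix) is a transcription factor of committed osteoblasts, so the EGFP-negative gate leaves osteoblasts out, together with any cell that the enzymes do not release or that does not survive them. The sorted sp7+ cells of the same stage, read here as a further group of 2 libraries, show what the osteoblasts removed by the gate look like.

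Whole fin was sequenced less deeply than the sorted cells. The whole fin libraries held 130725802 and 153260623 calls, the sp7- libraries 388305930 and 198736279, and the sp7+ libraries 350819557 and 220754053. Over all CpGs the level was 77.4% and 77.1% in whole fin, 78.9% and 78.2% in sp7- cells, and 80.3% and 78.9% in sp7+ cells. Whole fin (77.2% ± 0.220, SD, n = 2) was thus 1.32 points below sp7- cells (78.6% ± 0.453, SD, n = 2), and the libraries of the 2 groups did not overlap. An exact permutation test over the 4 libraries gave p = 0.333 (two-sided), which is the smallest value that 2 against 2 allows. By tile, the median difference was -0.84 points, and 57.4% of tiles were lower in whole fin.

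At single tiles, 124 passed an adjusted p of 0.05 (limma, Benjamini-Hochberg over all tiles) together with a difference above 25 points. Of these, 85 were lower in whole fin (0.00486% of the tiles tested) and 39 were higher (0.00223%). Differences ran from -74.2 to -26.8 points with a median of -39.5 in the first group, and from 25.1 to 69.7 points with a median of 36.4 in the other. The fit compares 2 libraries with 2. It called 0 tiles when the transform of the levels carried no offset for small counts, when either sp7- library was left out, or when the level of a tile was the mean of its CpG levels. A quasi-binomial model with 1 dispersion for all tiles called 1963, among them all 85 and all 39. Without the offset 120533 tiles had an unadjusted p below 0.05, where 87531 would be expected with no difference. The fit with the offset had an excess too. That excess was nearly absent when either sp7- library was left out, and remained when either whole fin library was.

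The 10 tiles named next had the largest differences among called tiles with at least 20 calls in each of the 4 libraries, 5 in each direction. Positions are those of the deposited files on the GRCz10 assembly, and each tile is named without a gene because none could be assigned there. On chromosome 24, the tile at 1311500 to 1311999 holds 26 CpGs and had 193 to 370 calls per library. Its level was 25.4% and 12.1% in whole fin, 78.9% and 81.1% in sp7- cells, and 86.9% and 80.3% in sp7+ cells. Both whole fin libraries were thus far below all 4 sorted libraries, by 61.1 points against the sp7- pool (adjusted p = 0.000165, limma). On chromosome 6, the tile at 42710000 to 42710499 was listed at 0% in both whole fin libraries, on 21 and 57 calls, against 66.1% and 78.0% in sp7- cells and 57.2% and 50.0% in sp7+ cells. No call was methylated in whole fin here, so that the gap to every sorted library was at least 50.0 points. The tile holds 42 CpGs, so the 21 calls of whole fin replicate 1 cannot have covered all of them. The sp7- libraries had 307 and 59 calls. The levels may thus rest in part on different CpGs.

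The remaining 3 tiles of the lower group lay on chromosomes 21 and 7. At 44646000 to 44646499 on chromosome 21 the levels were 40% and 3.8% in whole fin, 86.0% and 94.7% in sp7- cells, and 91.1% and 94.9% in sp7+ cells. The 2 whole fin libraries differed from each other by more at this tile than at any other of the 5, and still neither reached a sorted library. At 40115000 to 40115499 on the same chromosome the levels were 29.0% and 25%, against 91.1% and 76.5% in sp7- cells and 62.2% and 53.4% in sp7+ cells. At 52751500 to 52751999 on chromosome 7, both whole fin libraries had 24%, on 25 calls each, and the sorted libraries lay between 79.0% and 86.7%.

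Of the 5 tiles in the higher group, the farthest apart was at 71819500 to 71819999 on chromosome 7, with 85.7% and 95.8% in whole fin and 29.9% and 6.1% in sp7- cells. The sp7+ cells had 30.2% and 12.2% there and so lay with the other sorted cells. At 71003000 to 71003499, also on chromosome 7, whole fin had 75% and 54.8%, sp7- cells 22.5% and 9.0%, and sp7+ cells 21.5% and 6.1%. At 48530000 to 48530499 on chromosome 13 the levels were 90% and 100% in whole fin, 44.4% and 49.1% in sp7- cells, and 59.4% and 67.4% in sp7+ cells. These 3 tiles had both sorted fractions below whole fin. The tile at 37334000 to 37334499 on chromosome 12 was the exception, since sp7+ cells (76.9% and 71.2%) lay with whole fin (90.6% and 68.1%) and only sp7- cells were low (21.7% and 17.1%). At 26807500 to 26807999 on chromosome 22, whole fin had 53.6% and 60%, sp7- cells 6.7% and 11.5%, and sp7+ cells 26.6% and 5.6%.

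**Figure D1:**
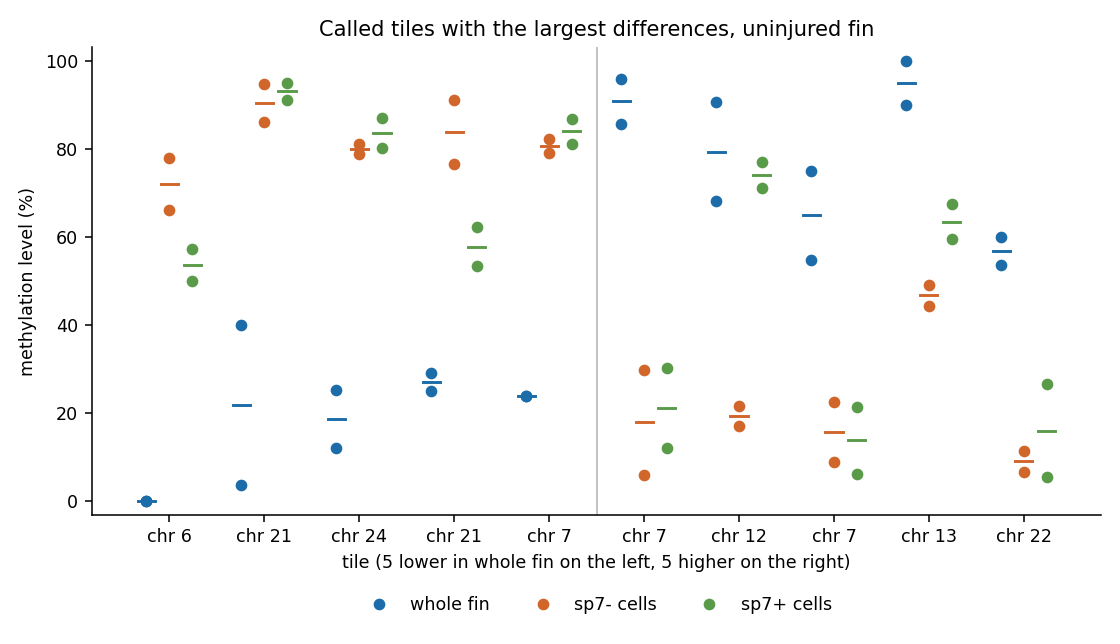
Methylation level (%) at the 10 named tiles in the uninjured fin. Each point is 1 library and each line the mean of 2. Whole fin lies outside all 4 sorted libraries at 9 of the 10 tiles, and sp7+ cells reach into the whole fin range only at the tile on chromosome 12.

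Neighbouring tiles were seldom called together. There were 116 called tiles with no called neighbour and 4 runs of 2 tiles. The run on chromosome 5, 71610500 to 71611499, holds 53 CpGs and had 13.0% and 16.5% in whole fin against 54.7% and 46.8% in sp7- cells and 61.9% and 56.5% in sp7+ cells. The run on chromosome 2, 53173500 to 53174499, had 25.3% and 30.9% in whole fin, 62.3% and 69.7% in sp7- cells, and 69.8% and 64.6% in sp7+ cells. The run on chromosome 4, 18602500 to 18603499, went the other way, with 73.4% and 79.0% in whole fin, 39.4% and 37.6% in sp7- cells, and 44.0% and 40.6% in sp7+ cells. The run on chromosome 24, 983000 to 983999, had 42.2% and 38.6% in whole fin, 75.5% and 66.3% in sp7- cells, and 71.2% and 72.6% in sp7+ cells. In all 4 runs both whole fin libraries lay outside all 4 sorted libraries of 0 dpa.

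With tiles of 5000 bp, a size added after the data were seen, 6 tiles were called, 5 lower and 1 higher in whole fin. The tile on chromosome 24 at 1310000 to 1314999 (adjusted p = 0.00744, limma) had 44.2% and 37.6% in whole fin, 76.3% and 76.7% in sp7- cells, and 82.2% and 78.9% in sp7+ cells. The gap was not even along the tile. The kilobase that ends at the centre of the tile had 25.4% and 12.1% in whole fin and between 78.9% and 86.9% in the sorted libraries, whereas in the next kilobase all 6 libraries of 0 dpa lay between 92.0% and 95.9%. About 4 kb before that kilobase, the same libraries all had between 0.107% and 1.09%. The stretch that was low only in whole fin thus lay a few kilobases from one that was unmethylated in all 6 libraries.

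The tile on chromosome 6 at 16715000 to 16719999 had the widest gap of the 6 (adjusted p = 0.00744, limma), with 20.5% and 4.8% in whole fin, 82.4% and 82.2% in sp7- cells, and 75.7% and 80.1% in sp7+ cells. Its coverage also differed. Whole fin had 44 and 42 calls over 199 CpGs, where sp7- cells had 816 and 719. In the kilobases centred at -1500, -500 and 500 bp from the tile centre, each whole fin library had 0 or 3 calls. The sp7- cells had 81.8% to 96.9% there. The pooled levels of the 2 groups thus rest in part on different CpGs, and the gap is not like for like. Relative to each group's total calls, whole fin coverage was 0.116 of that of sp7- cells. It was 0.186 and 0.230 at the 2 tiles called on chromosome 7, but 1.36 at the tile on chromosome 24 and 1.21 at the tile called higher on chromosome 4.

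**Figure D2:**
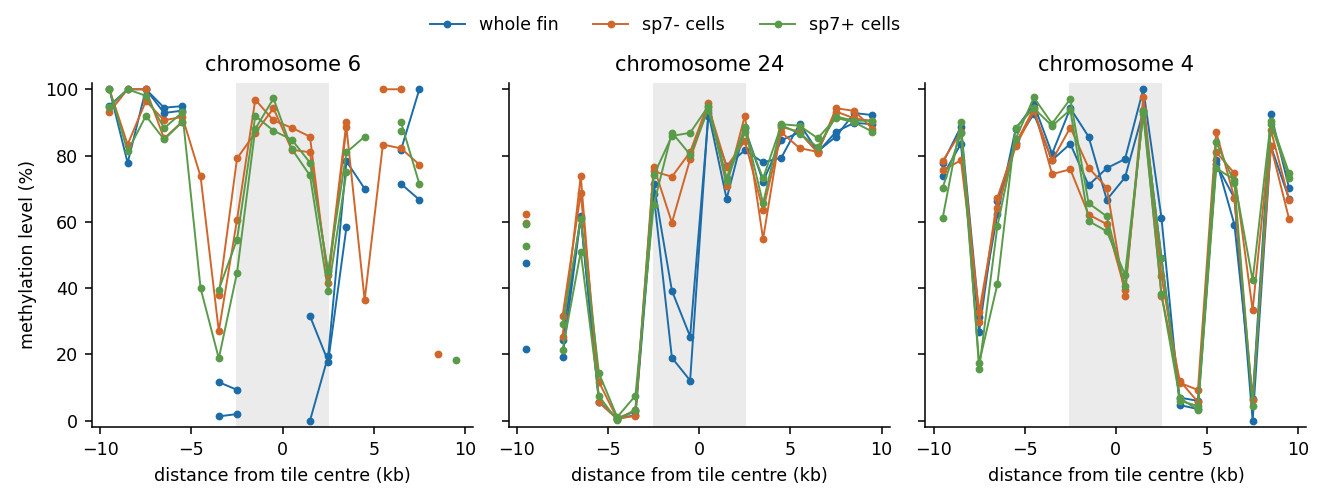
Methylation level (%) in steps of 1 kb around the 2 tiles of 5000 bp with the lowest adjusted p and around the tile called higher in whole fin; the x axis is the distance from the tile centre (kb), each line is 1 library, and the shaded band is the tile. Steps with fewer than 5 calls are left blank. On chromosome 24 whole fin falls to 25.4% and 12.1% within the tile and meets the sorted libraries on both sides; on chromosome 6 the 3 middle steps of the tile have too few whole fin calls to be drawn.

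Relative coverage was therefore read at all called 500 bp tiles. Its median was 0.928 at the 85 tiles lower in whole fin and 0.924 at the 39 higher, against 1.05 over all tiles tested. It was below 0.5 at 10 of the 85 (11.8%) and 2 of the 39 (5.13%), against 1.45% of all tiles, and this included 3 named tiles, those at 42710000 (0.441), 52751500 (0.267) and 48530000 (0.318). With tiles outside the range from 0.5 to 2 set aside, 74 lower and 37 higher calls remained. The part of coverage in the other calls was not tested.

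The sp7+ cells lay with the sp7- cells and not with whole fin at most called tiles. At the 85 tiles lower in whole fin the medians were 24.6% in whole fin, 71.2% in sp7- cells and 67.0% in sp7+ cells, and sp7+ cells were nearer to sp7- cells at 79 of the 85. At the 39 tiles higher in whole fin the medians were 77.2%, 29.8% and 41.8%, and sp7+ cells were nearer to sp7- cells at 34 of the 39. Over all tiles sp7+ cells were nearer to sp7- cells at 59.7%. The tiles were called for a wide gap between whole fin and sp7- cells, and few tiles differ widely between the sorted fractions, so these counts are given as a description. The sp7- libraries took part in choosing these tiles and the sp7+ libraries did not, so the counts above are not like for like. Tiles were therefore also chosen with 1 sp7- library, by a difference above 25 points and both whole fin libraries on the same side of it, and read in the other. Chosen with replicate 1, the 10168 lower tiles had a median of 48.1% in whole fin, 66.7% in sp7- replicate 2, and 69.6% and 66.7% in the sp7+ replicates. Chosen with replicate 2, the 12477 lower tiles had 51.4% in whole fin, 69.6% in sp7- replicate 1, and 69.2% and 69.4% in sp7+ cells. For the higher tiles the medians were 75.4%, 60%, 58.3% and 61.3% in the first choice and 75%, 62.9%, 64.6% and 62.5% in the other. In all 4 readings the median difference between sp7+ cells and the unused sp7- library stayed between -1.48 and 0.60 points. Few tiles differ widely between the sorted fractions, so a small median was likely whatever tiles were chosen. Since both gates were sorted from the same fins, sp7+ libraries may also share fins with the sp7- library used to choose. This reading too is given as a description.

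The libraries of later days, which had no part in calling the tiles, kept part of the difference. Whole fin of these days is unsorted tissue of regenerating fins, not mature fin. With 74 lower and 37 higher tiles that had 10 calls in all 16 libraries, the mean level of the lower tiles was 27.2% and 26.5% in whole fin at 0 dpa and 66.6% and 66.7% in sp7- cells at 0 dpa. The 6 whole fin libraries of 1, 2 and 4 dpa had 38.9% to 45.3% at these tiles, while the sp7- libraries of 4 dpa had 59.3% and 57.6% and the 4 sp7+ libraries 59.1% to 64.7%. At the higher tiles the 6 later whole fin libraries had 46.8% to 55.3%, the sp7- libraries of 4 dpa 38.8% and 37.98%, and the sp7+ libraries 32.7% to 36.7%. Whole fin of every day was thus on the same side of every sorted library, and by less than at 0 dpa. The tiles were chosen for their difference at 0 dpa, so an effect of that choice cannot be told apart from a change with time here.

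**Figure D3:**
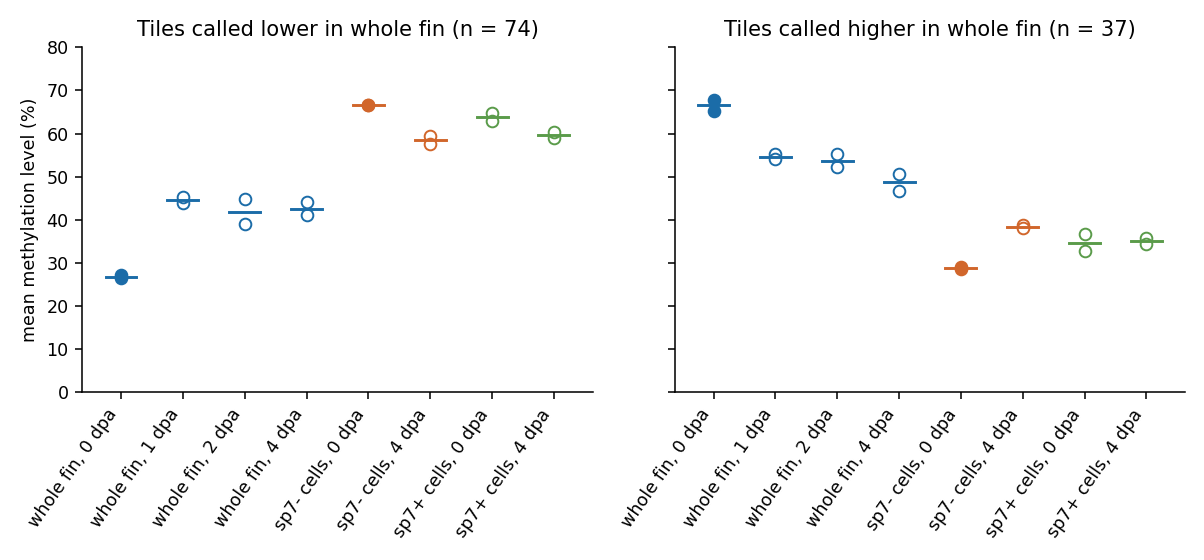
Mean methylation level (%) over the tiles called lower (left, 74 tiles) and higher (right, 37 tiles) in whole fin, in each of the 16 libraries. Filled points are the libraries that called the tiles, open points those that did not, and lines are means of 2. The open whole fin points lie between 38.9% and 45.3% on the left and between 46.8% and 55.3% on the right, apart from all open points of sorted cells.

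The mean of the higher tiles less the mean of the lower tiles gives 1 value per library. It was 9.37 points ± 4.54 (SD, n = 6) in the later whole fin libraries, from 2.65 to 16.4, and -20.6 and -19.6 points in the sp7- libraries of 4 dpa. The difference of 29.4 points had p = 0.0357 in an exact permutation test (two-sided), the smallest value that 6 against 2 allows. With the 4 sp7+ libraries added to the sorted side, a comparison chosen after the data were seen, the sorted libraries ran from -30.2 to -19.6 points and the exact p was 0.00216, again the smallest possible. Per the study's methods both gates were sorted from the same collected fins, so these 6 sorted libraries are not 6 independent pools, the sp7+ libraries of 0 dpa share fins with the sp7- libraries that called the tiles, and this p is too small. Per the study, these later whole fin libraries hold blastema and wound epidermis of regenerating fins, and the sp7- libraries of 4 dpa are from regenerates too. Time and tissue thus differ on both sides from the libraries that called the tiles. Within 4 dpa alone, the 2 whole fin libraries had 2.65 and 9.57 points against -20.6 and -19.6, without overlap, and an exact permutation test of 2 against 2 cannot go below p = 0.333.

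Tile by tile, 77 of the lower and 39 of the higher calls had 10 calls in the libraries of 4 dpa. Whole fin was below sp7- cells at 4 dpa in 89.6% of the first, against 53.1% of all tiles, and above in 79.5% of the others, against 46.6%. The median difference was -38.4 points at 0 dpa and -15.0 at 4 dpa in the lower calls, and 36.4 and 9.64 points in the higher calls. These tiles were called for a wide difference at 0 dpa, so a smaller one in other libraries follows in part from that choice. The smaller values are not read as a change with time. By the definition of differing tiles given further on, 18 of the 77 and 5 of the 39 differed again in the same direction at 4 dpa, against 0.285% and 0.215% of all tiles. At the chromosome 24 tile the level was 23.9% and 36.9% in whole fin at 4 dpa against 71.8% and 66.5% in sp7- cells. At the chromosome 13 tile it was 90.9% and 100% against 50.9% and 49.0%. The tile at 44646000 on chromosome 21 had 57.6% and 23.1% against 87.0% and 87.5%, and the tile at 71003000 on chromosome 7 had 32.7% and 74.1% against 25.99% and 8.9%, both without overlap. On chromosome 12 whole fin (52.1% and 46.9%) overlapped with sp7- cells (42.3% and 59.0%) at 4 dpa. The groups also overlapped at 52751500 and 71819500 on chromosome 7, 40115000 on chromosome 21 and 26807500 on chromosome 22. In that order whole fin had 84.7% and 15.4%, 41.9% and 62.9%, 71.4% (on 7 calls) and 8.3%, and 4.3% and 33.3%. The sp7- cells had 83.8% and 81.1%, 58.1% and 17.5%, 56.6% and 50%, and 32.5% and 35.8%. On chromosome 22 the pooled difference was -21.3 points, against 48.0 at 0 dpa. The change of the difference between 0 and 4 dpa, tested as an interaction with all 16 libraries, passed the threshold at 1 of 1549223 tiles, the tile at 42710000 on chromosome 6.

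A wider set of tiles was described without a test. A tile was taken as differing when the pooled levels lay more than 25 points apart and both whole fin libraries were outside both sp7- libraries, a definition set after the data were seen. There were 6576 such tiles lower in whole fin (0.376% of those tested) and 3567 higher (0.204%), and they include all 124 called tiles. Of these, 4892 lower and 2642 higher tiles had enough calls to be read at 4 dpa. Among them 6.32% and 5.15% differed again in the same direction, against 0.285% and 0.215% of all tiles. Whole fin lay on the same side at 70.7% and 66.7%, against 53.1% and 46.6% of all tiles. The median difference went from -28.4 to -6.24 points in the lower tiles and from 27.9 to 5.54 in the higher. A smaller difference follows in part from the choice at 0 dpa. Without a minimum difference, the groups of 0 dpa did not overlap at 22.9% of tiles with whole fin lower and at 14.7% with whole fin higher. The libraries can be divided between the groups in 6 ways. With no difference and the same spread in all libraries, about 1 tile in 6 would therefore separate in each direction. The 14.7% lay below that share and the 22.9% above it. Whole fin was shallower and its replicates differed more, so the spread was not the same. The share expected with unequal spread was not computed, so neither figure is read as a result. For comparison, replicates differed by more than 25 points at 3.12% of tiles in whole fin and at 1.12% in sp7- cells. The pooled groups differed by as much at 0.615% of tiles. Replicate differences are between single libraries and the group difference is between pools, which vary less, so these shares are not like for like. The share of lower tiles among the differing ones was 64.8%. It was 48.3% (5256 lower, 5635 higher) after each library was centred to the same median, which moved the median difference of all tiles from -0.84 to 0.23 points, and among the called tiles it went from 85 and 39 to 91 and 100. The excess of lower over higher tiles was therefore not found after centring. Leaving out sp7- replicate 1 gave 12962 lower and 11578 higher tiles.

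Differing tiles were poor in CpGs and partly methylated. Their median was 6 CpGs in both directions, against 9 over all tiles. Of tiles with 1 to 3 CpGs, 1.34% were lower and 0.642% higher in whole fin, and of tiles with 21 or more CpGs 0.136% and 0.0780%. Depth moved with this. Median calls were 18 per whole fin library in the first class and 173 in the other, and the median number of calls at differing tiles was 17 to 21 in whole fin against 50 and 57 over all tiles. The called tiles went the opposite way and were called in 0.00108% of tiles with 1 to 3 CpGs and 0.0170% of tiles with 21 or more. The part of depth in either pattern was not tested.

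The level of a tile in the sp7- libraries of 4 dpa was not used to choose the differing tiles. Tiles between 25% and 50% differed most often, at 1.02% lower and 1.19% higher in whole fin. Between 50% and 75% the shares were 0.846% and 0.423%, between 75% and 90% 0.215% and 0.0395%, and at 90% or more 0.0483% and 0.00374%. Below 25% the shares were 0.149% lower and 0.383% higher, so that higher tiles were the more frequent in both classes under 50%. A tile near 0% has no room to be lower by 25 points and a tile near 100% none to be higher, so this order is in part arithmetic. Of the 124 calls, 123 could be read there and 87 lay between 25% and 75%, a range that holds 27.9% of the tiles.

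**Figure D4:**
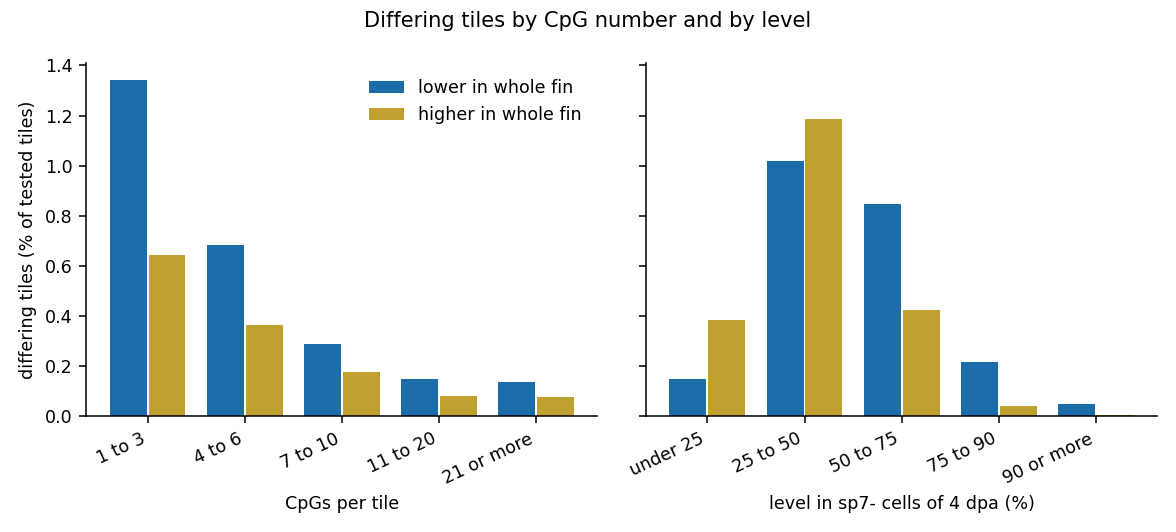
Differing tiles as a percentage of the tiles tested, by number of CpGs per tile (left) and by level in the sp7- libraries of 4 dpa (right), lower and higher in whole fin. The share falls from 1.34% to 0.136% for lower tiles as CpGs increase, and is highest between 25% and 50% for both directions.

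Unmethylated tiles (under 20% over the sorted libraries of 4 dpa, with at least 5 CpGs), a class that in vertebrates consists largely of promoters and CpG islands, gave 22 lower and 160 higher differing tiles, 0.0348% and 0.253% of those tested. Tiles next to an unmethylated one gave 276 and 279, or 0.775% and 0.783%, above the 0.372% and 0.180% of tiles more than 5 kb away. Of the tiles next to an unmethylated tile 0.0225% were called, against 0.00508% of the tiles farther than 5 kb. Calls did not follow the order of differing tiles throughout. They were 0.0174% of unmethylated tiles and 0.0190% of tiles at 1 to 2 kb, both near the share at the edges. The median number of calls per whole fin library was lower next to unmethylated tiles (40) than far from them (53). The edges of unmethylated stretches thus held a larger share of differing tiles than tiles more than 5 kb away. Within unmethylated stretches a level under 20% leaves almost no room to be 25 points lower, so the order of the directions there is set by the class.

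Differing tiles were spread unevenly over the chromosomes. Chromosome 7 had the highest share of lower tiles, 0.607%. It was followed by chromosome 1 with 0.570%, chromosome 21 with 0.527% and chromosome 24 with 0.486%, and the lowest share was the 0.262% of chromosome 20. Higher tiles were most frequent on chromosome 2 (0.373%) and chromosome 18 (0.320%). At 4 dpa chromosomes 1, 21 and 24 had 0.302%, 0.276% and 0.321% lower tiles, against 0.285% of all tiles. Chromosomes 2 and 18 had 0.198% and 0.294% higher tiles at 4 dpa, against 0.215% of all tiles. On chromosome 7 the share was highest in a stretch bounded after the data were seen. From 46000000 to 63999999 the share was 1.24% (272 of 21946 tiles), against 0.392% (235 tiles) before it and 0.531% (72 tiles) after it, while higher tiles were at 0.141% within the stretch. Of the tiles of chromosome 7, 13 were called (0.0136%), where 0.00486% of all tiles were called lower and 0.00223% higher. In that stretch 8 of 21946 tiles were called, all lower in whole fin. Before it 0 of 59874 were called, and after it 5 of 13567, so calls were not particular to the stretch. At 4 dpa, in other libraries, the same stretch had 0.775% lower tiles against 0.395% before it. Relative coverage at 0 dpa was below 0.5 at 3.49% of its tiles, against 1.45% of all tiles, and the part of coverage was not tested.

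**Figure D5:**
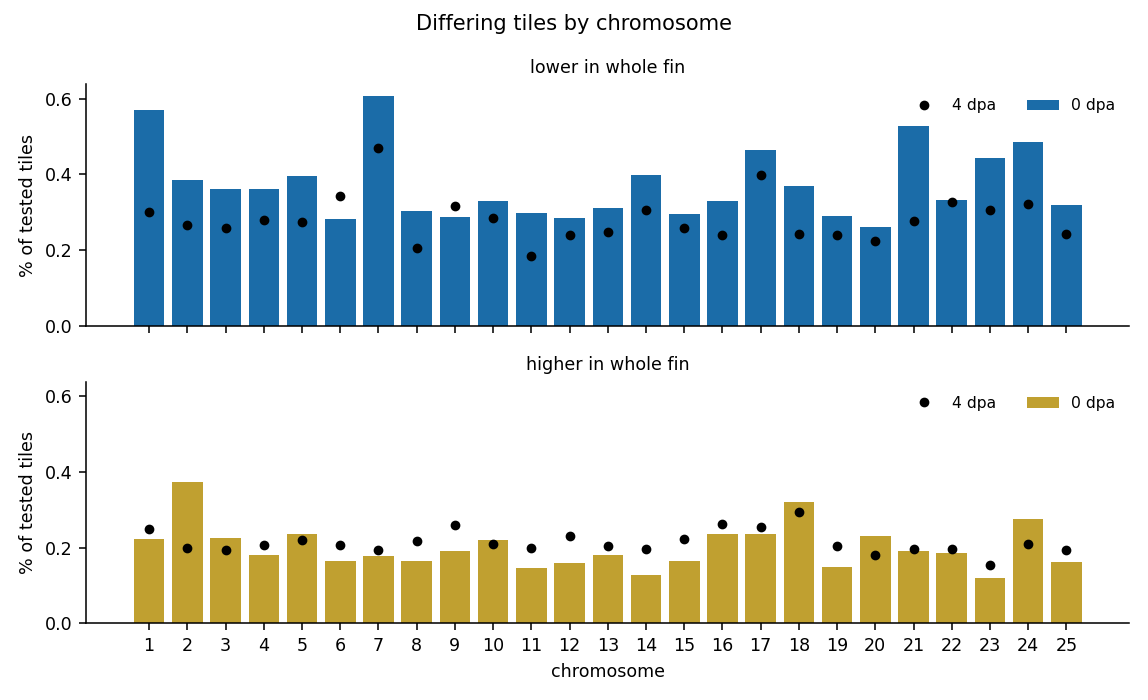
Differing tiles as a percentage of tested tiles on each of the 25 chromosomes, lower in whole fin (top) and higher (bottom); bars are 0 dpa and points are the same definition applied to the 2 whole fin and 2 sp7- libraries of 4 dpa. Chromosome 7 has the highest share of lower tiles at both times, 0.607% and 0.471%.

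In bins of 1 Mb the clustering was sharper. Over 1318 bins with at least 500 tested tiles, the median share of lower tiles was 0.318%, and the 20 highest bins had 1.18% to 2.41%. Of these 20, 10 were on chromosome 7, the first being the bin that starts at 63000000 (2.41%), and 2 each were on chromosomes 1, 21 and 24. The first Mb of chromosome 24 had 1.55% and the next 2.25%, and the bins of chromosome 21 that start at 40000000 and 41000000 had 1.88% and 1.77%. Read in the 4 dpa libraries, the 20 bins had 0.749% lower tiles against 0.278% in all other bins, and 0.187% higher tiles. Of the 20 bins, 4 were below that 0.278% at 4 dpa, those that start at 1000000 on chromosome 24 (0.236%), at 53000000 and 56000000 on chromosome 7 (0.224% and 0.270%) and at 17000000 on chromosome 2 (0.245%). Relative coverage was below 0.5 in 4.32% of the tiles of these bins, against 1.45% of all tiles. The 20 bins with most higher tiles had 0.716% to 1.19%, and 0.343% at 4 dpa against 0.213% elsewhere. Some bins were in both lists of 20. The first Mb of chromosome 24 had 1.13% higher tiles beside its 1.55% lower ones. The bin that starts at 48000000 on chromosome 5 had 0.913% higher and 1.60% lower tiles.

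Whole fin holds the osteoblasts that the gate removes, and its position between the 2 fractions was read at tiles that set sp7+ cells apart. Tiles were chosen where sp7+ cells were more than 45 points below sp7- cells at 4 dpa, so that none of the 6 libraries of 0 dpa was used. At these 386 tiles the mean level at 0 dpa was 62.6% and 61.8% in sp7- cells, 20.5% and 20.1% in sp7+ cells, and 59.3% and 57.7% in whole fin. Whole fin lay 8.70% of the way from sp7- to sp7+ cells, from 5.83% to 11.6% over the 8 combinations of single libraries, and below both sp7- libraries in both of its own. With a limit of 30 points, 4182 tiles put whole fin at 4.79% of the way. At the 34 tiles more than 45 points higher in sp7+ cells whole fin (59.0% and 55.5%) lay below sp7- cells (61.6% and 62.4%) although sp7+ cells were higher (75.2% and 77.9%). The position there was -33.3%, from -54.6% to -15.9% over the combinations of single libraries, and -21.0% without whole fin replicate 2. The same was found for 1069 tiles at 30 points (-8.88%). In both kinds of tile whole fin was the lower group, as over the genome, and the 2 positions have opposite signs.

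Tiles that differed between the sorted fractions at 4 dpa were a small share of the differing tiles, though larger than over all tiles. Of the lower differing tiles 2.23% and of the higher 2.75% were more than 25 points lower in sp7+ than in sp7- cells at 4 dpa, and of the called lower tiles 1.19% (1 of 84 that could be read), against 0.515% of all tiles. In the other direction, 1.13% of the lower and 1.23% of the higher differing tiles were more than 25 points higher in sp7+ cells, against 0.203% of all tiles. The larger share was thus found in both directions. Differing tiles were also shallow, with a median of 27 to 49 calls per sp7- library of 0 dpa, against 140 and 75 over all tiles. The part of depth in these shares was not tested. Fitted with all 16 libraries, 452 of 1549223 tiles were called between whole fin and sp7- cells, by adjusted p and 25 points. Of these, 279 were lower (0.0180%) and 173 higher (0.0112%). They included 70 of the 74 lower and 36 of the 37 higher calls that could be tested there. In the same fit 10211 of the 1549223 tiles were called between whole fin and sp7+ cells of 0 dpa (2595 lower and 7616 higher). That comparison shares the whole fin libraries. At 4 dpa, 67 of the 1549223 tiles were called between whole fin and sp7- cells in that fit, 32 lower and 35 higher.

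Gene names could be given only on chromosomes 1 and 10 to 19, where regions assigned to genes in the study's supplementary lists of accessible regions could be placed on the same assembly. Within 5 kb of the start of 1153 such genes lay 12168 tiles, of which 0.485% were lower and 0.329% higher differing tiles, against 0.376% and 0.204% of all tiles. A lower one lay near 57 genes and a higher one near 39. Called tiles lay near 3 of these genes, where 0.00486% of all tiles were called lower and 0.00223% higher. One was irs2a, an adaptor of the insulin and IGF receptors, at 28407000 to 28407499 on chromosome 1, with 49.3% and 45.6% in whole fin, 19.1% and 14.3% in sp7- cells, and 24.7% and 15.0% in sp7+ cells. The next tile but 1, at 28408000, had 76.0% and 38.8% in whole fin and 27.5% and 16.3% in sp7- cells, so that both whole fin libraries were above every sorted library of 0 dpa at both tiles near irs2a. The other 2 genes carry clone names. At si:ch211-1a19.3 on chromosome 11 whole fin had 13.0% and 25.4% and sp7- cells 59.7% and 62.1%. At si:ch73-301j1.1 on chromosome 12 whole fin had 37.8% and 40% and sp7- cells 81.9% and 71.8%.

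Of 139 genes on 8 lists of fin cell types and position genes, 20 could be placed. A lower differing tile lay near 2 of the 20 and a higher one near 1, none of them called, against 4.94% and 3.38% of all placed genes. They were msx1b, a homeobox gene held by the osteoblast list, runx3, a transcription factor of blood and other lineages, and hoxc13b, a posterior Hox gene. At msx1b whole fin had 86.7% and 21.1% against 9.4% and 14.3% in sp7- cells and 5.6% and 11.1% in sp7+ cells, on 14 to 32 calls, so the 2 whole fin libraries lay far apart. At runx3 whole fin had 40% and 40%, sp7- cells 88.2% and 69.0%, and sp7+ cells 73.2% and 66.7%. At hoxc13b whole fin had 35.0% and 50.0% and sp7- cells 66.7% and 78.3%, while at 4 dpa the order was the reverse, with 66.7% and 53.8% in whole fin, on 6 and 26 calls, and 17.9% and 30.3% in sp7- cells. The first of these is under the minimum of 10 calls. Of the 8 placed genes of the osteoblast list, msx1b was thus the 1 with a differing tile, and none lay near alpl, col10a1a, col1a1b, entpd5a, runx2a, sparc and spp1. The position of sp7 itself was not used here. Lists of epidermal, pigment, glial and blood vessel genes had 3, 0, 0 and 1 placed members.

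Among the other differing tiles near named genes, blnk, a linker of B cell receptor signalling, had 46.2% and 40% in whole fin, 78.9% and 74.5% in sp7- cells, and 83.3% and 85.0% in sp7+ cells. At mhc1zba, an MHC class I gene of a family with many near copies, whole fin had 66.7% and 31.6% and sp7- cells 96.2% and 87.5%, on 12 to 26 calls. The sp7+ cells had 62.5% and 66.7% there, within the whole fin range. At igf2bp2b whole fin had 41.7% and 50%, sp7- cells 75% and 90%, and sp7+ cells 65% and 9.4%, so the sp7+ libraries lay far apart. At st6galnac, named for a sialyltransferase, whole fin had 51.1% and 42.9% and sp7- cells 77.9% and 88.9%. At fam193a the levels were 23.4% and 60% against 85.2% and 70.6%, with 81.6% and 75.3% in sp7+ cells. Higher in whole fin were nhsl1a (53.3% and 53.8% against 6.7% and 16.7%, on 12 to 30 calls) and bdh2, a dehydrogenase. At bdh2 whole fin had 88.2% and 63.6% against 39.6% and 46.2%, on 11 to 53 calls. The sp7+ cells had 0% and 20% at nhsl1a, and 63.2% and 53.8% at bdh2, between the 2 groups. Each of these tiles differed without overlap at 0 dpa and none passed the test over all tiles. At 4 dpa the pooled difference was 0 points at blnk and had the opposite sign at igf2bp2b (3.45) and nhsl1a (-14.1). It kept its sign at mhc1zba (-29.3), st6galnac (-6.08), fam193a (-6.62) and bdh2 (22.7).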

How the data were processed

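DNA from 2 whole fin and 2 sorted sp7- pools of the uninjured fin was sequenced after bisulfite conversion (TruSeq DNA Methylation kit). Per the labels and methods, the authors trimmed reads with Trim Galore 0.4.1, aligned them with Bismark 0.16.1 and Bowtie2 to a GRCz10 genome edited to the strain's single-base variants. CpGs lost through those variants were dropped, and reads were deduplicated. The deposited counts are, for each of 23997221 CpGs, the number of calls and of methylated calls, with no normalization; whether positions start at 0 or 1 is not given in the sources used here.

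Calls were summed in 500 bp tiles. Levels were transformed to the arcsine of the square root with 0.375 added to methylated and 0.75 to all calls, weighted by calls with a correlation between calls estimated from replicates, and compared with variances shrunk by limma 3.58.1 (R 4.3.3), with Benjamini-Hochberg adjustment over all tiles. Calls required an adjusted p under 0.05 and over 25 points. The offset was added after a test on simulated data: without it 0% of changed tiles were recovered, with it 63.0%, 74.0%, 91.5% and 100% of 200 tiles changed by 30, 40, 50 and 70 points, with 1 other tile called among 1750620. All the changed tiles started above 75% and were made lower in whole fin than in sp7- cells. Of 123 real calls read in sp7- cells of 4 dpa, 87 lay between 25% and 75%. Every simulated tile had the same spread, the value that the fit had estimated. The 1 other call is therefore not an error rate for the real calls. Recovery of tiles made higher, or by starting level, was not tested. Named tiles were the 5 per direction with the largest difference among called tiles with 20 or more calls in all 4 libraries. Genes were named by calls or, for the wider set, after their values were seen. Gene positions came from the study's accessible regions, whose level at gene starts was 8.92% to 9.35%, and 76.4% to 78.8% at 10 kb away. Promoters were not tested, and no sequence is shown, since no genome of this build was used. The groups, members and lists were chosen with earlier results of these data known. Alternatives were other tile sizes, minimum calls, differences, models, thinning of the sp7- libraries, centring, coverage limits and each library left out. Calls from 1 fragment are not independent, and p-values rest on 2 libraries per group.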

Additional observations from a re-analysis of the deposited data

Results flagged for a closer look

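The difference between whole fin and sp7- cells changed from 0 to 4 dpa at 1 tile when tested as an interaction with all 16 libraries (limma, adjusted p = 0.0334). It was the tile at 42710000 to 42710499 on chromosome 6, where whole fin less sp7- cells gave -68.0 points before amputation and 23.2 points on day 4, so that the difference at 0 dpa less that at 4 dpa was -91.2 points. Both whole fin libraries had 0% before amputation. The level was 22.8% and 19.5% on day 1, 18.5% and 0% on day 2, and 90% and 67.4% on day 4, on 10 and 46 calls. The sp7- cells had 66.1% and 78.0% at 0 dpa and 41.9% and 64.4% at 4 dpa, and the 2 sp7+ libraries of 4 dpa lay apart, at 32.5% and 84.2%. Relative coverage of whole fin at this tile was 0.441 at 0 dpa, and its part in the result was not tested.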

How the results depend on the processing

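The count of 124 called tiles depended on the model and on every library. It was 57 above 40 points, 46 with tiles of 200 bp, 26 with 2000 bp and 6 with 5000 bp, 1963 with the quasi-binomial model, 223 with the 6 libraries of 0 dpa, 452 with all 16 libraries, 72 with the sp7- libraries thinned, 191 after centring, 46 without tiles of high coverage, 0 with means of CpG levels and 0 without the offset. With 1 library left out it ran from 0 (either sp7- library) to 1122 (whole fin replicate 1), with 717 without whole fin replicate 2. With the replicate block the fit called 2562 tiles (1573 lower, 989 higher) on 1 residual degree of freedom; deviations of same-numbered libraries had a correlation of 0.010 over tiles, so the numbers are not taken to pair the samples. More calls were lower than higher under all of these that gave calls except centring (91 lower, 100 higher).

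Differing tiles, lower and higher, numbered 110682 and 71369 above 10 points, 402 and 135 above 40, 15387 and 8144 with 5 calls, 1987 and 1332 with 20 calls, 2678 and 1293 with tiles of 1000 bp, 13890 and 9357 with 200 bp, and 13170 and 7279 with means of CpG levels; centring gave 5635 higher tiles. With 1 library left out they ran from 10954 to 26678 and from 7129 to 12276.

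The global difference stayed negative under all 6 alternatives, though leaving out 1 library could not reverse it, since the groups did not overlap. The difference in libraries not used to call the tiles depended on the set of tiles. It was 29.4 points for the called tiles, 19.2 for tiles called by the quasi-binomial model and 13.2 for the differing tiles. In the last 2 sets the later whole fin libraries had means of 0.35 and -1.62 points, against 9.37 for the called tiles. For the called tiles the difference stayed between 28.04 and 30.8 points with 1 library left out. Its exact p was 0.143 without either sp7- library of 4 dpa (29.0 and 29.9 points) and 0.333 for 4 dpa alone (26.2 points), where no smaller value is possible. Whole fin lay 4.79% and -8.88% of the way to sp7+ cells at 30 points, and 60 points left 12 and 0 tiles, too few to use. Of 70 recomputed differences at the 10 named tiles, 66 moved by less than 1 replicate SD, 4 by more and 0 changed sign. Leaving out 1 library could not change the sign, since the groups did not overlap at any of these tiles. With 2 libraries per group, leaving out 1 also moves an unweighted mean by less than 1 SD whatever the values. Many of the 66 were thus set in advance and do not measure stability. Among them, the tile at 44646000 on chromosome 21 went from -65.2 to -85.9 points without whole fin replicate 1. The planned promoter test was not run, as promoter positions were not used here.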
